A study of Homo sapiens with 23 samples.

Results

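MYC, a single gene, and the chromatin around it were examined in NCI-H23, an established human cell line from a non-small cell lung cancer. The gene (gene ID 4609) starts at position 128748315 of chromosome 8 and ends at 128753680 in build hg19. Its promoter was taken as 1 kb on each side of the start, and its surroundings as the 3.0 Mb from 127.9 to 130.9 Mb. This window reaches 0.848 Mb upstream and 2.152 Mb downstream of the start. It held 6391 of the 2889009 deposited peaks, and the promoter 24. Positions below are in kb from the start, and negative values lie upstream.

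Chromatin immunoprecipitation followed by sequencing was done for 11 targets with 2 replicate libraries each. The targets were BRD2, 5 acetylation marks (H4K5acK8ac, H4K5ac, H4K8ac, H4K12ac and H3K27ac) and 5 methylation marks (H3K4me3, H3K4me1, H3K36me3, H3K9me3 and H3K27me3), and 1 input sample had no file used here. All came from the same line with no genetic change named. The labels give mouse monoclonal antibodies for H4K5acK8ac, H3K27ac and H3K4me3 and rabbit polyclonal ones for the others. The protocols mention the BET inhibitor JQ1 and its solvent DMSO without saying which library received either, so treatments were not compared. Nothing says that replicates were separate cultures, so their spread may be technical. The label of the second H3K9me3 library also carries the number 3.

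MYC encodes a transcription factor that drives growth and proliferation genes and is often overactive in cancer. Its transcription is controlled by enhancers scattered over the gene-poor chromatin around it, many of them far downstream, with different ones used in different tissues. In the reference gene table the next gene downstream is PVT1, a long noncoding RNA gene, and the next upstream is CASC11, another noncoding one. The nearest protein-coding neighbours are POU5F1B upstream and GSDMC downstream. BRD2 is a BET protein, a family that reads acetylated histone tails. H3K4me3 marks active promoters, H3K4me1 with H3K27ac marks active enhancers, and H3K36me3 marks transcribed gene bodies. H3K27me3 is the Polycomb mark and H3K9me3 a heterochromatin mark.

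Peak strength is given as the fold enrichment and −log10 q of the authors' peak caller. Both hold only within a list, so peaks are placed by their percentile, the share of the list's peaks with a lower −log10 q. With 2 libraries per target an exact two-sided test of one target against another cannot give a p under 1 in 3, so all comparisons are values without a test. Sequencing depth is unknown. Lists held between 21572 and 277462 peaks.

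The MYC promoter carried H3K4me3 and all 5 acetylation marks in both replicates, while BRD2 was called there in 1 of 2 lists and only weakly. A promoter peak was present in 13 of the 22 lists. H3K4me1, H3K36me3, H3K9me3 and H3K27me3 had none in either list. H3K4me3 formed 1 peak of 7.97 kb in replicate 1 and 7.88 kb in replicate 2, which spanned the whole gene. Its fold enrichment was 52.09 and 59.51, at the 65.6th and 66.8th percentile of the lists. By width this domain stood out more than by strength. The merged region (chr8:128746361-128754327) was wider than 99.6% of the 20506 H3K4me3 regions called in both lists, whose median width was 1.90 kb.

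**Figure D1:**
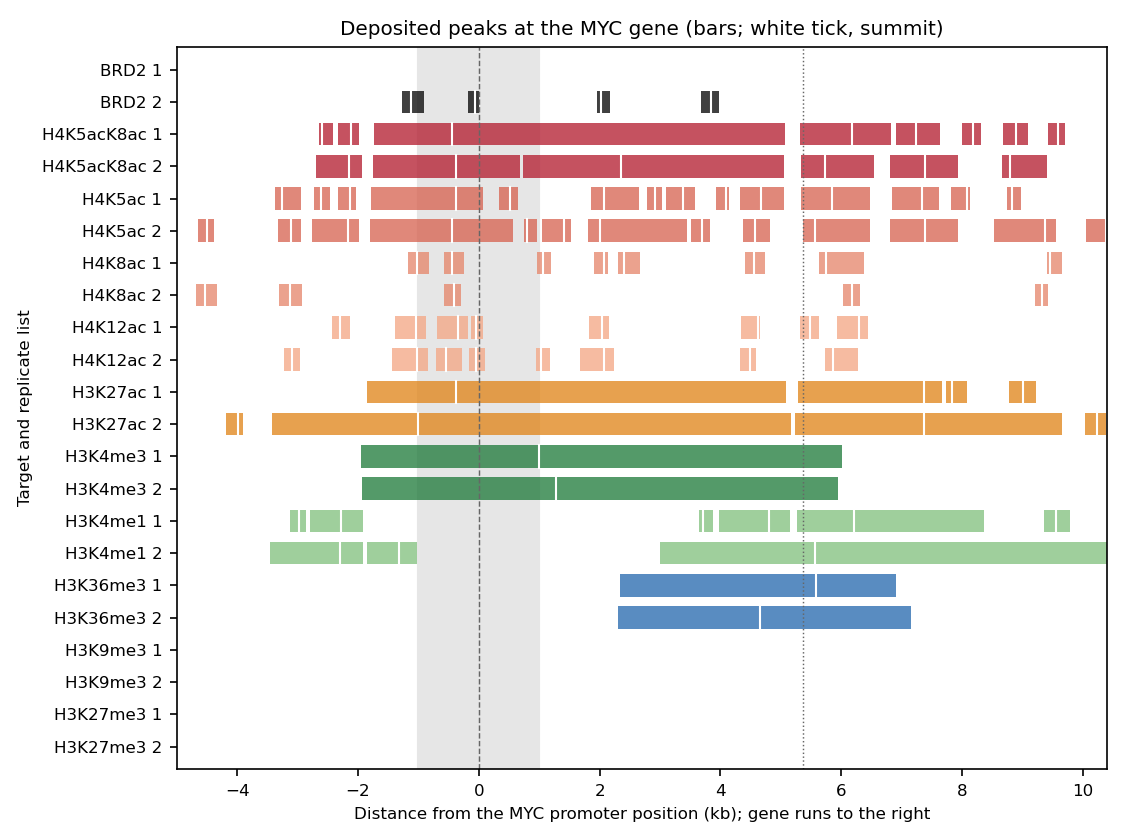
Deposited peaks of each of the 22 lists (rows) by distance in kb from the MYC promoter position; bars span a peak, white ticks are summits, the grey band is the promoter and the dotted line the gene end. H3K4me3 covers the gene, H3K4me1 lies on both sides of the promoter, H3K36me3 starts at 2.33 or 2.32 kb, and BRD2 has peaks in replicate 2 alone.

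H3K27ac, laid down by the acetyltransferases p300 and CBP, gave the highest promoter percentile. Its fold enrichment was 31.87 in replicate 1 and 26.69 in replicate 2, at the 96.3rd and 95.6th percentile. H4K5ac followed with 7.26 and 6.64, at the 94.0th and 92.9th percentile. The doubly acetylated tail, H4K5acK8ac, had fold enrichments of 11.83 and 11.30, at the 85.8th and 86.2nd percentile. The replicates of these 3 marks lay close to each other. H4K5acK8ac peaks filled 97.4% of the promoter in replicate 2, and all of it in replicate 1, as H3K27ac did in both.

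The single H4 marks H4K12ac and H4K8ac were present at the promoter in narrow peaks. H4K12ac had fold enrichments of 2.67 and 3.41, at the 74.0th and 78.8th percentile. H4K8ac had 2.83 and 3.03, at the 83.2nd and 67.3rd percentile, so its replicates differed more. H4K8ac covered 27.1% and 13.9% of the promoter and H4K12ac 41.8% and 46.2%. Over the 10 acetylation lists the summit of the strongest promoter peak had a median position of -424 bp, from -1045 to 1033 bp. The H3K4me3 summits lay on the other side of the start, at 1.00 and 1.27 kb.

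Acetylation was common at H3K4me3 regions in general. H4K5acK8ac was called in both lists at 84.4% of all H3K4me3 regions, H4K5ac at 82.4%, H3K27ac at 77.4%, H4K12ac at 76.7% and H4K8ac at 53.6%. The MYC region had all 5. BRD2 was called in both lists at 49.1% of H3K4me3 regions, and at 76.3% of the 7260 that were at least as significant as that of MYC in both lists. MYC was among the remainder. Of those 7260 regions, 20.6% lacked a BRD2 peak in replicate 1, 15.3% had one in replicate 2 alone, and 386 had none in either list.

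The 2 BRD2 promoter peaks of replicate 2 were weak. The one ending at the start, with its summit at -0.07 kb, had a fold enrichment of 2.62 and a −log10 q of 0.583, short of a q of 0.05. The other, with its summit at -1.12 kb just outside the promoter, had 3.17 and 2.02. It stood at the 48.8th percentile of its list. In replicate 1 the nearest BRD2 peaks were 66.84 kb upstream and 39.71 kb downstream. BRD2 at the promoter was therefore a call of a single library, and it was lost when peaks needed a −log10 q of 5.

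Within the gene, marks changed in order along its length. H3K4me1 was missing around the start, with flanking regions that peaked at -2.29 kb and 5.89 kb. The downstream one ranked at the 99.7th percentile in both lists. H3K36me3, deposited behind elongating RNA polymerase II by SETD2, ran from 2.32 to 7.15 kb, past the gene end at 5.37 kb. It had a fold enrichment of 14.95 in replicate 1 and 14.13 in replicate 2. These peaks ranked 76 of 148323 and 119 of 146180, higher than any promoter mark did in its own list. H3K9me3 and H3K27me3 had no peak in the gene in any list.

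Both sides of the gene differed. H3K27ac regions called in both lists numbered 84 in the window: 83 downstream, 1 across the start and 0 upstream. Per Mb, they covered 188 kb downstream and 4.03 kb upstream, all of it the promoter region, against 32.4 kb over the genome. In the replicate 1 list alone the values were 172.71 kb downstream and 2.18 kb upstream, and in replicate 2 they were 197.64 and 9.79 kb. The downstream side is the longer one, so counts are also given per Mb. H4K5acK8ac had 116 regions downstream and 3 upstream (53.9 and 3.54 per Mb). H4K5ac had 200 and 5 (93.0 and 5.89 per Mb) and H4K8ac 210 and 4 (97.6 and 4.72 per Mb). H4K12ac had 117 and 8 (54.4 and 9.43 per Mb). H3K4me1 was less one-sided by count, with 87 regions downstream and 10 upstream, covering 189 and 13.2 kb per Mb.

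H3K27me3 showed the reverse layout. It covered 41.2% of the upstream side and 15.8% of the downstream side, against 4.11% of the genome. Its last upstream region ended at -13.02 kb and its next one started only at 506.81 kb. This stretch of 519.82 kb without a shared H3K27me3 region held MYC and the whole of the large H3K27ac cluster from 56.43 to 406.59 kb. Scattered single-list peaks fell inside it. In replicate 1 one ended at -12.34 kb and the next started at 14.43 kb, and in replicate 2 the first started at 319.84 kb. H3K9me3 covered 16.2% upstream and 10.3% downstream, against 4.66% of the genome, and regions called in both lists were missing from -13.95 to 168.09 kb. Single-list H3K9me3 peaks lay inside, one ending at -12.32 kb in replicate 1 and one starting at 34.54 kb in replicate 2.

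**Figure D2:**
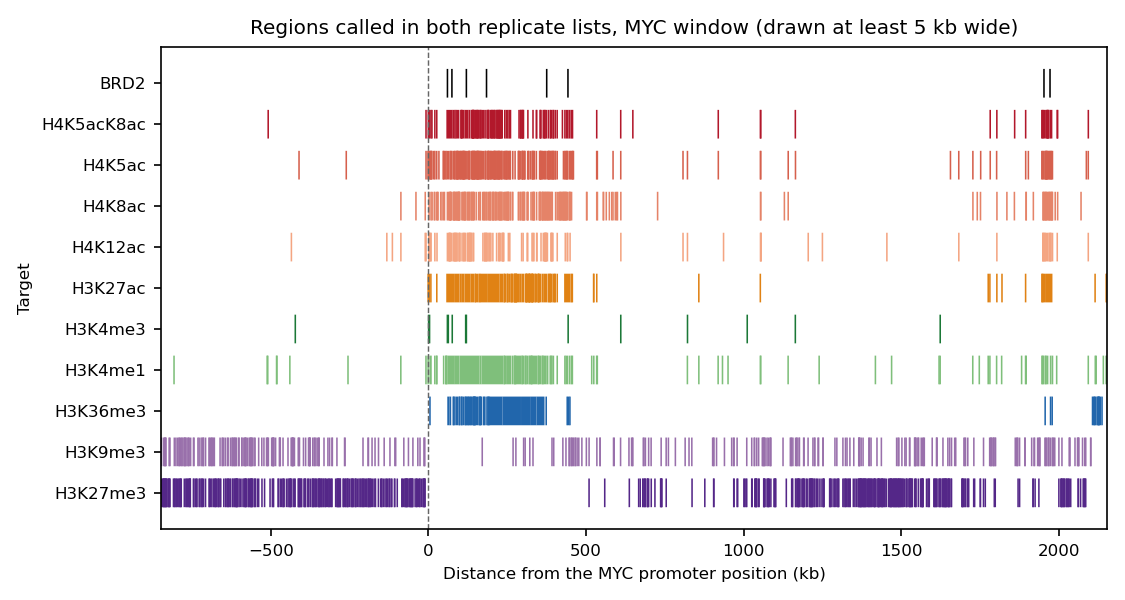
Regions called in both replicate lists of each target (rows) by distance in kb from the MYC promoter position; regions narrower than 5 kb are drawn at that width. Acetylation and H3K4me1 fill the stretch from about 56 to 456 kb and a second block near 1943 to 1979 kb, where H3K27me3 is sparse, and the 8 BRD2 regions fall in those blocks.

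By count, merged regions were denser in the window than over the genome for 8 of the 11 targets, including the repressive marks. The ratio of regions per Mb was 4.64 for H3K27me3, 3.88 for H4K8ac, 3.33 for H4K5ac, 2.93 for H4K12ac, 2.89 for H3K9me3, 2.67 for H4K5acK8ac, 1.60 for H3K27ac and 1.09 for H3K4me1. It was 0.759 for H3K36me3, 0.603 for H3K4me3 and 0.572 for BRD2. By covered length only H3K4me3 was below the genome, with 8.53 against 13.8 kb per Mb. BRD2 regions covered 4.59 kb per Mb against 3.59. Peaks of the single BRD2 lists were also denser than over the genome on both sides. Replicate 1 had 29.5 per Mb upstream and 30.7 downstream against 18.4, and replicate 2 had 24.8 and 34.9 against 14.8. H3K36me3 regions covered 311 kb of the 3.0 Mb, against 68.7 kb per Mb over the genome. The lists give no read depth or copy number of the locus, and the part of these in the densities was not tested.

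The downstream acetylation formed 1 large cluster. H3K27ac regions at least 2 kb from the promoter, stitched where gaps were at most 10 kb, gave a cluster from 56.43 to 406.59 kb (chr8:128804748-129154901). Its 60 regions covered 316.05 kb, 90.3% of its span. It ranked second by covered length among 22564 clusters of the genome, whose median was 2.10 kb and whose 99th percentile was 42.22 kb. Only a cluster on chromosome 20, with 358.70 kb, was longer. The MYC cluster ranked 2, 3 or 4 by covered length under every alternative run, and covered 341 kb in replicate 2 alone and 301 kb in replicate 1 alone.

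**Figure D3:**
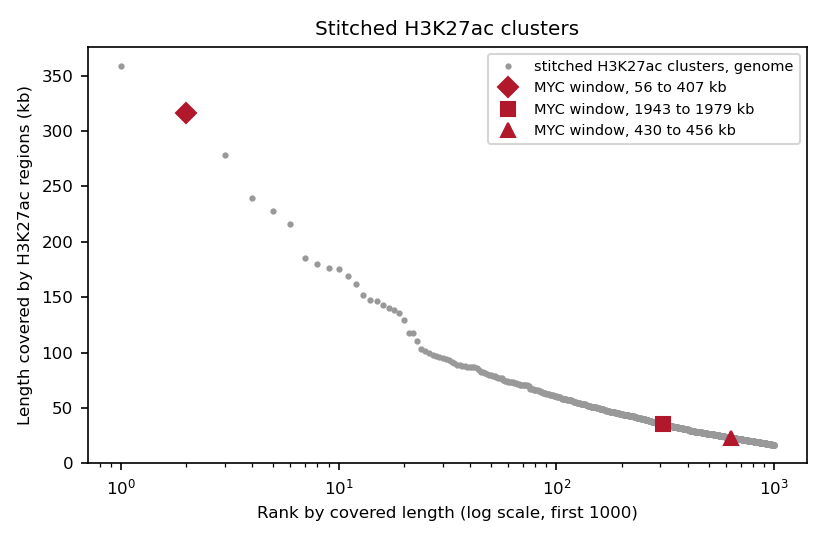
Length covered by H3K27ac regions (kb) in the 1000 longest stitched clusters of the genome, by rank on a log axis; red symbols are the 3 longest clusters of the MYC window. The cluster from 56 to 407 kb is second with 316.05 kb, and the others rank 309 and 636.

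Other marks filled this cluster to different degrees. H3K4me1 peaks covered 81.9% and 91.0% of its span in replicates 1 and 2, and H3K36me3 78.3% and 77.2%. H4K5ac covered 53.5% and 54.6%, H4K5acK8ac 53.7% and 49.2%, H4K8ac 38.4% and 31.7%, and H4K12ac 26.2% and 21.8%. H3K4me3 covered 3.6% and 3.4%, in 4 regions. BRD2 covered 3.0% and 4.9%. H3K9me3 covered 3.3% and 3.7%, and H3K27me3 0.0% and 0.1%. H3K27ac and H3K36me3 thus lay together over a long stretch: of the 84 H3K27ac regions of the window 58 (69.0%) overlapped H3K36me3, against 35.2% over the genome. Of the 84, 60 were pieces of this 1 cluster, so the share mostly describes a single stretch and not separate sites.

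The cluster held some of the strongest H4 acetylation of the genome. In 7 of the 8 H4 lists the window's strongest peak had its summit at 73.98 to 74.03 kb. That peak ranked 2nd and 20th of its list for H4K5acK8ac, 7th and 10th for H4K5ac, 9th and 7th for H4K12ac, and 19th for H4K8ac replicate 1. In H4K8ac replicate 2 the strongest was at 441.55 kb and ranked 60th. H3K4me1 also peaked in the cluster, ranking 3rd at 140.61 kb and 6th at 119.27 kb. For H3K27ac the strongest peak, at 118.18 and 118.30 kb, ranked 639th and 1987th, so this mark stood out by extent more than by peak height.

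The strongest acetylation peaks of this cluster exceeded the MYC promoter, while most of its H3K27ac, H4K5acK8ac and H4K5ac regions were weaker. The H4K5acK8ac fold enrichment was 11.83 and 11.30 at the promoter, and 50.24 and 31.50 at 74.0 kb. For H3K27ac the promoter had 31.87 and 26.69 and the strongest peak of the cluster 41.87 and 31.39. By fold enrichment in both lists, 58 of the 60 H3K27ac regions, 71 of the 82 H4K5acK8ac regions and 127 of the 138 H4K5ac regions of the cluster were below the promoter. Those above it in both lists numbered 1, 8 and 6. The contrast was weaker for the other acetylation marks. For H4K12ac, 47 of the 82 regions of the cluster were below the promoter in both lists and 16 above. For H4K8ac, 55 of the 131 regions were below it in both lists, which is not most of them, and 30 were above. For H3K4me3 the strongest peak of the window was that of MYC in both lists, and the next, from 57.58 to 65.51 kb, had 29.90 and 28.66.

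BRD2 had 8 regions called in both lists, all downstream, 5 of them in the large cluster. The strongest and nearest (chr8:128806072-128809145, summit at 58.61 kb) lay in that second H3K4me3 domain. Its fold enrichment was 6.46 in replicate 1 and 18.72 in replicate 2, and it ranked 620th of 56828 and 243rd of 45728. The replicate summits were 8 bp apart. Peaks of all 5 acetylation marks, H3K4me3, H3K4me1 and H3K36me3 overlapped it in both lists. The overlapping H4K5acK8ac peaks had 49.33 and 31.50. That of replicate 2 was 20.04 kb wide with its summit at 73.98 kb, so 31.50 is not a value of this site alone. The H3K27ac peaks here, with 32.35 and 17.76, also overlapped the BRD2 region at 73.94 kb.

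Next came regions with summits at 73.94 kb (chr8:128820255-128824334) and 118.05 kb (chr8:128866103-128868035). The first had BRD2 fold enrichments of 3.49 and 10.52, and the second 3.80 and 7.59. The first overlapped the broad peak that held the H4 acetylation maximum. H3K4me3 was present but low at both, with 7.64 and 5.56 at the first and 5.86 and 4.67 at the second.

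Further downstream, BRD2 sites carried little or no H3K4me3. At 373.21 kb (chr8:129120803-129122006) BRD2 had 3.36 and 8.89, with no H3K4me3 or H3K36me3 peak. At 440.86 kb (chr8:129188202-129190101) it had 4.13 and 8.47, with H4K5acK8ac at 39.06 and 23.33 and a weak H3K4me3 peak at 2.51 and 2.34. This site belonged to a separate H3K27ac cluster from 430.20 to 455.58 kb, which covered 23.10 kb and ranked 636th. The region at 181.87 kb (chr8:128929966-128930277) was weak, with 2.43 and 3.04, and its −log10 q of 0.926 in replicate 1 fell short of a q of 0.05.

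The last pair of BRD2 regions lay almost at the far end of the window. They had summits at 1949.65 kb (chr8:130697658-130698684) and 1968.59 kb (chr8:130716813-130717056). The first had fold enrichments of 3.59 and 4.90, and the second 2.80 and 3.43. Both were in a cluster from 1942.84 to 1978.70 kb, of which H3K27ac regions covered 35.11 kb, the 309th longest. H4K5acK8ac peaks covered 91.2% and 75.4% of it, more than in the large cluster. No H3K4me3 or H3K27me3 region lay in it, but 8 H3K9me3 regions did, and H3K9me3 peaks covered 20.2% and 21.8% of it. All 8 BRD2 regions overlapped each of the 5 acetylation marks, and none overlapped an H3K27me3 or H3K9me3 region called in both lists. An H3K9me3 peak of replicate 2 alone, with 2.61, overlapped the one at 1968.59 kb. The same shares over the 14417 BRD2 regions of the genome are not given here, so these counts do not set the window apart.

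**Figure D4:**
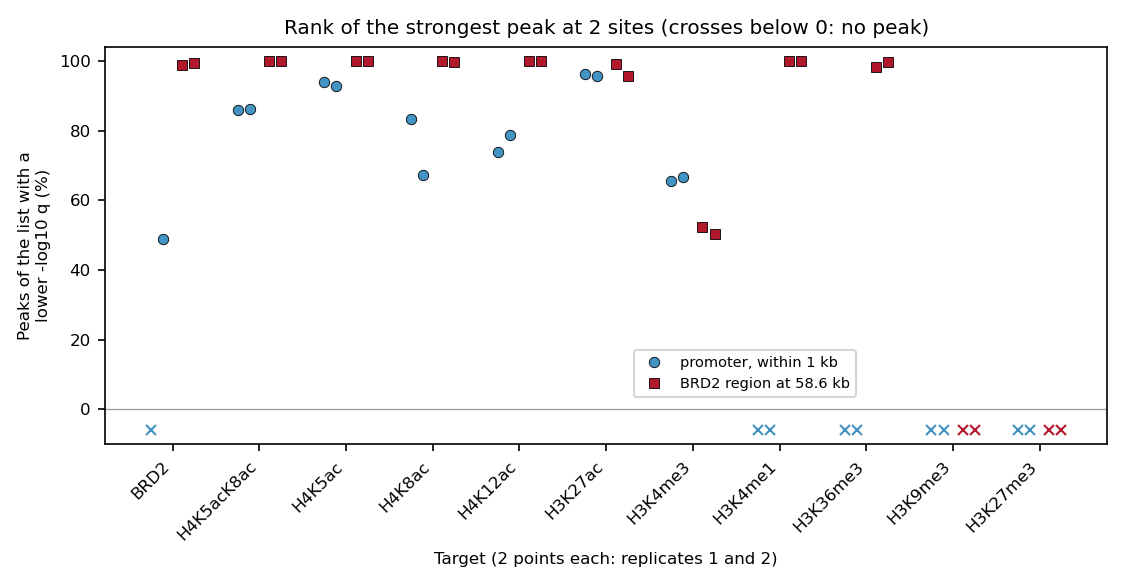
Percentile (%) of the strongest peak within 1 kb of the MYC start (circles) and at the BRD2 region at 58.61 kb (squares) in each list, 2 replicates per target; crosses mark lists with no peak. The strongest peak overlapping the distal site is above the promoter for BRD2 and the 4 H4 marks. It is also above for H3K27ac, at 99.1% and 95.8% against 96.3% and 95.6%, by little in replicate 2. For H3K4me3 it is below, at 52.2% and 50.2% against 65.6% and 66.8%. Broad peaks count wherever they overlap the site, and that of H4K5acK8ac replicate 2 has its summit at 73.98 kb.

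The share of H3K27ac regions with BRD2 was compared with the genome. Of the 84 H3K27ac regions of the window, 7 (8.33%) overlapped a BRD2 region called in both lists, against 19.9% over the genome. This order depended on the library: with the replicate 2 lists alone it was 12.6% against 18%, and with the replicate 1 lists alone 12.5% against 11.7%. Among H3K27ac regions with a −log10 q of at least 100 in both lists, a threshold chosen after the values were seen, 7 of 20 (35%) had BRD2 against 78.7% over the genome. These strong regions stayed below the genome with the replicate 2 lists (68.2% against 87.3%) and with the replicate 1 lists (46.2% against 78.7%). The 2 sets differ in make-up. In the window 73 of the 84 H3K27ac regions had H3K4me1 and no H3K4me3 peak, against 26674 of 54036 over the genome. Over the genome BRD2 was called at 3.04% of such regions and at 49.1% of H3K4me3 regions. The shares above are therefore not of like regions, and the difference was not tested.

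Enhancer-like regions, that is H3K27ac regions with H3K4me1 in both lists and no H3K4me3 peak in either, numbered 73. Of these, 56 had their summits within 500 kb downstream, 4 between 500 and 1500 kb, 13 beyond 1500 kb and 0 upstream. Their median width was 1.98 kb and the widest spanned 37.26 kb. H3K4me1 was called at 78 of the 84 H3K27ac regions (92.9%), against 77.5% over the genome. H4K5acK8ac was called at 45 of the 84 (53.6%), near the 54.7% of the genome. Among the 73, 4 (5.48%) had BRD2, against 3.04%. The order turned in a pair of stricter settings: 26.7% against 38.0% with the 10000 most significant peaks per list, and 0% against 1.06% where every peak needed a −log10 q of 5 or more.

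The 5 most significant enhancer-like regions had mean H3K27ac summits at 95.42, 171.60, 373.25, 391.54 and 1972.49 kb. Their fold enrichments ran from 22.02 to 32.61 in replicate 1 and from 20.56 to 23.97 in replicate 2. All 5 carried the 4 H4 marks in both lists. BRD2 regions lay in 3 of them, those of 171.60, 373.25 and 1972.49 kb. The 5 were wide, from 7.75 to 26.28 kb, and had a −log10 q above 100 in both lists. Over the genome 78.7% of all H3K27ac regions that significant, promoters included, had BRD2. The like share for the H4 marks is not given here. Next to the H3K27ac region across the gene, the nearest one downstream, at 7.37 kb, had 5.22 and 6.88, and the farthest, at 2151.17 kb, 4.23 and 3.25. Outer H4K5acK8ac regions lay at -510.44 and 2090.17 kb and outer H3K4me1 regions at -808.91 and 2147.47 kb. H4K5acK8ac was nearest at -2.13 and 6.78 kb.

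**Figure D5:**
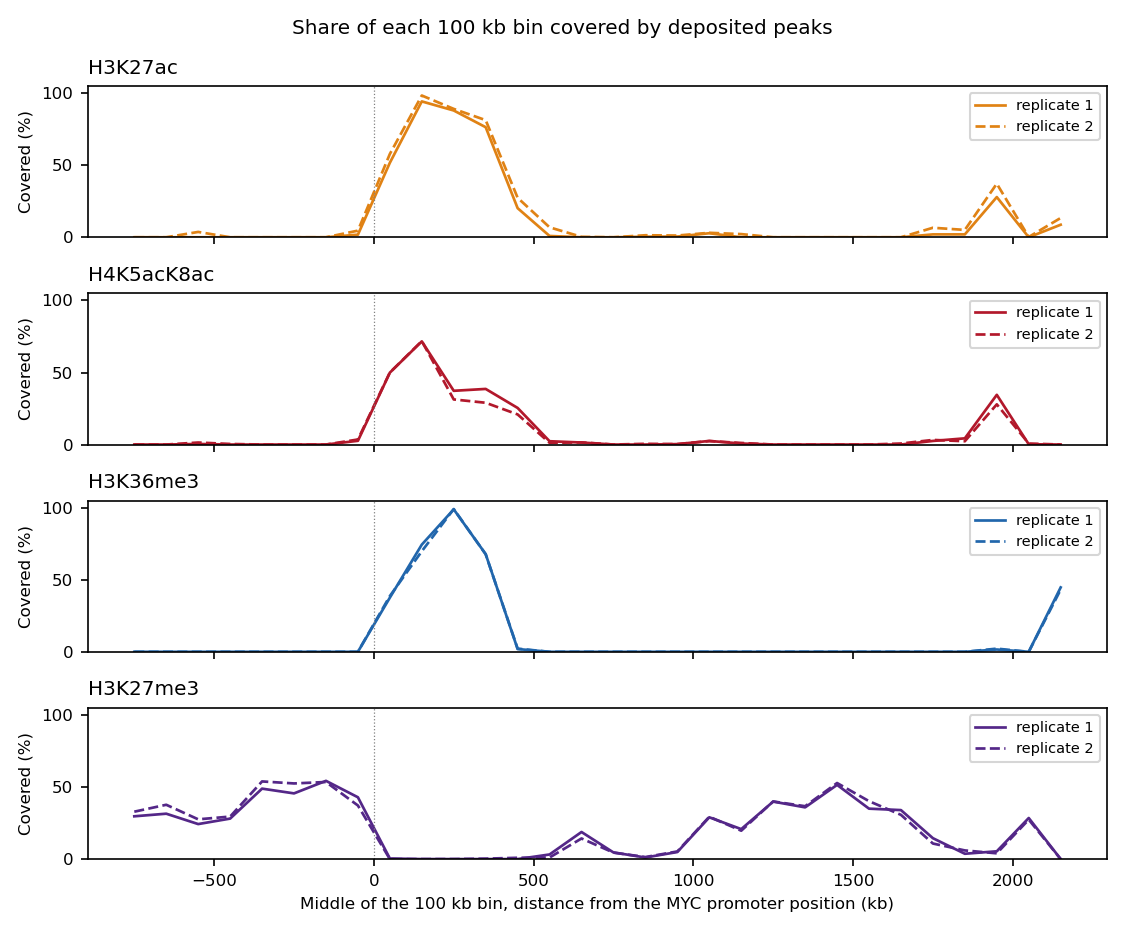
Share (%) of each 100 kb bin covered by the deposited peaks of H3K27ac, H4K5acK8ac, H3K36me3 and H3K27me3, by distance in kb from the MYC promoter position; solid lines are replicate 1 and dashed lines replicate 2. H3K27ac, H4K5acK8ac and H3K36me3 are high from 0 to 400 kb, where H3K27me3 is at or near 0, and the 2 replicates follow each other.

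The plot of coverage by bin showed that the acetylation marks did not decline together. In merged regions, H3K27ac covered 98.5% of the bin from 100 to 200 kb, 92.0% of the next and 81.8% of the one after. H4K5acK8ac covered 75.3%, 36.3% and 32.0% of these bins. H3K36me3 covered 76.1%, 99.8% and 68.4%. From 400 to 500 kb H3K27ac fell back to 23.8% and H3K36me3 to 2.1%.

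Of the 20505 other H3K4me3 regions, those most like the MYC region were found by the mean absolute difference in percentile over the 22 lists, an absent peak counting as 0. The 5 closest differed by 2.96 to 4.64 points, against a median of 23.67 over all. They were chr2:217231116-217238996, chr7:80544553-80549757, chr14:20937016-20940089, chr10:75668748-75676025 and chr17:8053849-8056235. No gene annotation of build hg19 was used, so they carry no gene names. In BRD2 replicate 1 they stood at the 0th to 0.9th percentile and in replicate 2 at the 35.8th to 73.2nd, and MYC at the 0th and 49.1st. Both BRD2 lists were among the 22 used to pick these regions, so this likeness follows from the choice and is not a separate result.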

How the data were processed

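The data are peak lists of 22 ChIP-seq libraries in 10-column narrowPeak layout without a header. BWA, MACS2 and build hg19 are named in the submitters' processing notes; versions, settings and the control are not given in the sources used here. In each deposited list a peak has its fold enrichment (a ratio), its −log10 p and −log10 q, and another value, the offset of its summit. A deposited score, 10 times −log10 p cut to whole numbers, played no part here. Peaks on chromosomes 1 to 22, X and Y were kept (19 others left out).

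Replicate lists were merged where peaks shared at least 1 bp, and a region had to hold a peak of each list. Values per Mb of the genome used 3093.4 Mb, the sum over chromosomes of the end of the last peak in any list. A reference gene table of another build (GRCh38.p14) gave gene names and their order, and no coordinates. Functions were tested on simulated intervals. Python 3.11.15, numpy 2.4.6, pandas 2.3.3 and matplotlib 3.10.9 were used. Named regions were the promoter regions, the BRD2 regions shared by both lists, the 5 most significant enhancer-like regions, the nearest and farthest regions, the 3 longest clusters and the 5 regions most like MYC. Other thresholds, overlaps, spans and single replicates were tried as alternatives. MYC and its spans were chosen with earlier results of these data known. No sequence is shown.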

Additional observations from a re-analysis of the deposited data

How the results depend on the processing

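Of 68 values under alternatives for 14 results, 29 stayed within 1 SD of the replicates or 1.5 times the count and 39 moved. Each SD came from only 2 values, 1 per replicate. It was 0.0556 percentage points for BRD2 at H3K27ac regions and 41.9-fold for the density ratio. The tally depends on these SDs and is not a measure of stability. The order against the genome turned for BRD2 at enhancer-like regions in the 2 strictest settings and for BRD2 at H3K27ac regions without replicate 2 (12.5% against 11.7%). The cluster settings and those on BRD2 at H3K27ac regions were chosen after the values were seen. At a −log10 q of at least 1.3, 4.17% of enhancer-like regions had BRD2, against 1.84% over the genome. At 5 or more, 8 lists had a promoter peak, the window held 4 BRD2, 66 H4K5acK8ac and 50 H3K4me1 regions, and 0% of enhancer-like regions had BRD2, against 1.06% over the genome. With the 10000 strongest peaks there were 7 lists, 5 BRD2, 16 H3K27ac, 14 H4K5acK8ac, 26 H3K4me1 and 15 enhancer-like regions, 26.7% of the last with BRD2, against 38.0%. With 50% of both peaks shared there were 53 H3K4me1 and 28 enhancer-like regions, 7.14% with BRD2, against 2.58%. Stricter settings keep fewer peaks; the other causes were not tested. BRD2 at H3K27ac regions rose from 8.33% to 35% with strong regions. The downstream over upstream ratio of H3K27ac density was 46.8-fold, and 103-fold with sides of equal length. The mean promoter percentile of H3K27ac, H4K5acK8ac and H3K4me3 was 96.0%, 86.0% and 66.2%. Ranked by fold enrichment it was 92.2%, 80.2% and 43.8%, and among peaks at H3K4me3 regions 79.8%, 63.0% and 64.7%.

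Leaving out either replicate left 6 to 7 lists with a promoter peak, of 11. Single lists, which need no second call, gave 91 to 97 BRD2, 144 to 159 H3K27ac, 176 to 216 H4K5acK8ac, 167 to 189 H3K4me1 and 109 to 119 enhancer-like regions. BRD2 was then at 11.0% to 11.8% of enhancer-like regions, against 5.52% and 6.05% over the genome, and at 12.5% to 12.6% of H3K27ac and 46.2% to 68.2% of strong H3K27ac regions. The density ratio ran from 20.2-fold (without replicate 1) to 79.4-fold (without replicate 2), so 1 library decides its size, and the cluster covered 301 to 341 kb. No paired analysis was possible because no result comes from a fitted test. Unknown depth limits comparisons of weak peaks.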

Other observations

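Most BRD2 peaks of the MYC window were found in 1 list only. Replicate 1 had 91 BRD2 peaks there, of which 18 (19.8%) overlapped a peak of replicate 2, against 30.8% over the genome. Replicate 2 had 97, of which 8 (8.25%) overlapped one of replicate 1, against 32.7%. Of the unshared peaks, 50 of 73 in replicate 1 and 41 of 89 in replicate 2 had a −log10 q under 1.3. The like share over the whole lists is not given here, so this need not be particular to the window. The most significant unshared peak of replicate 2 lay at 171.44 kb in the large acetylated cluster, with a fold enrichment of 5.36 and a −log10 q of 8.39. H3K27ac regions held 34 of the 91 peaks (37.4%, against 36.3% over the genome) and 53 of the 97 (54.6%, against 62.8%). Upstream of MYC, where no BRD2 region was called in both lists, replicate 1 had 25 peaks and replicate 2 had 21, and 0 and 1 of them lay in an H3K27ac region. H3K27ac regions covered only 4.03 kb per Mb of that side, so few overlaps were possible and the low counts say little about these peaks.

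Outside the large cluster and the MYC promoter, the window held some H3K4me3 regions with few or no acetylation marks. At -424.39 kb H3K4me3 had fold enrichments of 13.39 and 16.37 in replicates 1 and 2, with no other target called there in both lists. A region at 1161.30 kb had 26.24 and 26.60 and also held H3K9me3 and H3K27me3 along with H4K5acK8ac and H4K5ac. One at 1008.54 kb had 12.14 and 10.61 and no other target called in both lists. Others carried more: H4K5acK8ac, H4K5ac and H4K8ac regions with summits at 607.67, 607.75 and 607.83 kb overlapped H3K4me3. Over the genome 77.4% of H3K4me3 regions had H3K27ac called in both lists, so regions without it are not particular to this window. H3K36me3 had a second block at the downstream end of the window, where it covered 44.4% of the last, shorter bin.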
